A study of Caenorhabditis elegans with 4 samples.

Results

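The genes described here encode the enzymes with which the nematode Caenorhabditis elegans removes superoxide and hydrogen peroxide: the superoxide dismutases sod-1, sod-2, sod-3, sod-4 and sod-5, the catalases ctl-1, ctl-2 and ctl-3, and the peroxiredoxins prdx-2 and prdx-3. These 10 genes were taken by name from the 41602 genes of a whole-larva RNA-seq table that compared dve-1 mutants, carrying the allele uf171, with wild type (WT). Each genotype had 2 libraries, 4 in all, and animals of both genotypes were grown alike on bacterial lawns and pooled for extraction of total RNA. The sample names give the last larval stage, L4, but the protocol describes harvesting L1 larvae, and the labelled stage is used here. The sources used here do not state what kind of lesion uf171 is, and no label says whether replicates were grown separately, so p-values measure only the spread between libraries, which may be technical.

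Values are FPKM, fragments per kilobase of transcript scaled also to the mapped fragments of the library, summed per gene over its transcript entries. Depth, worked out from the spacing of small values, came to about 14100000 to 14300000 fragments in the dve-1 libraries and 14900000 to 15300000 in the WT libraries. The gene dve-1 itself read 22.98 and 21.1 FPKM in the dve-1 libraries, against 14.2 and 13.9 FPKM in the WT libraries, which does not check the genotype because the allele cannot be seen in FPKM. As markers of the whole animal, transcripts of intestine, body wall muscle, pharynx, neurons, hypodermis and germline were present. unc-54, a muscle myosin, read 722 and 597 FPKM in the dve-1 libraries and 535 and 710 FPKM in WT. The germline marker pgl-1, however, was listed at 0 in both WT libraries, against 10.4 and 11.9 FPKM in the dve-1 libraries. An exact 0 in this table can be a failed estimate, as set out for sod-5 below. Of 7 tested germline and sperm markers, pgl-1 among them, 3 were higher and 4 lower by sign in dve-1. Their median log2 fold change, dve-1 minus WT, was -0.03.

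Superoxide is formed mainly as a by-product of mitochondrial respiration. Superoxide dismutases convert it to hydrogen peroxide, and catalases and peroxiredoxins then break the peroxide down. The worm spreads these enzymes over compartments: SOD-1 and SOD-5 are copper-zinc enzymes of the cytosol, SOD-4 is an extracellular or membrane-bound copper-zinc enzyme, and SOD-2 and SOD-3 are manganese enzymes of the mitochondrial matrix. CTL-2 is the peroxisomal catalase and CTL-1 a cytosolic one, and PRDX-2 and PRDX-3 are the cytosolic and the mitochondrial peroxiredoxin. DVE-1 is a homeodomain protein known for its part in the mitochondrial unfolded protein response, and sod-3 is widely used as a reporter of the insulin-regulated transcription factor DAF-16.

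The family spanned a wide range of levels, in an order that was alike in the means of both genotypes except for sod-4 and ctl-2, which changed places. Averaged over the 4 libraries, prdx-3 (312 FPKM) and sod-1 (300 FPKM) were the most abundant, at the 95.1 and 94.8 percentile of the 13441 protein-coding genes with a mean of at least 1 FPKM. They could not be ranked against each other, since prdx-3 was the higher in 2 of 4 libraries. sod-2 followed at 131 FPKM, below sod-1 and above sod-4 in all 4 libraries. sod-4 (53.7 FPKM) and ctl-2 (50.4 FPKM) overlapped, with sod-4 the higher in 2 of 4 libraries. ctl-1 (27.3 FPKM) and ctl-3 (26.5 FPKM) overlapped as well, and both lay below ctl-2 in every library. sod-3 stood far below, at 3.07 FPKM, and sod-5 was lowest among the genes with any value.

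**Figure D1:**
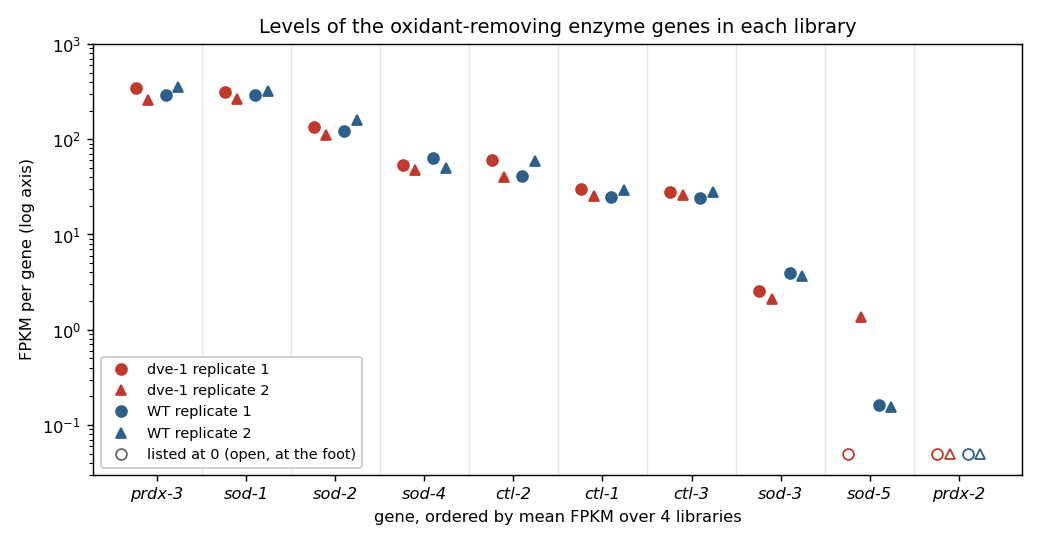
FPKM per gene on a log axis for the 10 enzyme genes, ordered by their mean over 4 libraries, with dve-1 libraries in red and WT libraries in blue, circles for replicate 1 and triangles for replicate 2. Neighbouring genes such as prdx-3 and sod-1 overlap, sod-3 is lower in both dve-1 libraries (2.58 and 2.12 FPKM) than in both WT libraries (3.90 and 3.67 FPKM), and open symbols mark values listed at 0.

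sod-1 (C15F1.7; chromosome II, 6972706 to 6973887, minus strand, WBcel235) carries most of the worm's superoxide dismutase transcript. It read 316 and 266 FPKM in the dve-1 libraries, against 295 and 322 FPKM in the WT libraries, and the genotypes overlapped. The means were 291 ± 35.3 FPKM in dve-1 and 308 ± 19.5 FPKM in WT (SD, n = 2 each). Its fold change, taken throughout as dve-1 minus WT on the log2(FPKM + 1) scale, was -0.09 (SE 0.15, 95% interval -0.52 to 0.35, limma adjusted p = 0.9995).

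The extracellular enzyme gene sod-4 (F55H2.1; chromosome III, 9497019 to 9500202, minus strand) read 53.7 and 47.3 FPKM in the dve-1 libraries, against 63.9 and 49.8 FPKM in WT. WT replicate 1 stood above the other 3 libraries, which lay close together, so that the log2 fold change of -0.16 (SE 0.20) turned to 0.02 without that library. sod-5 (ZK430.3; chromosome II, 4417633 to 4419130, plus strand), known for its rise in the dauer larva, was barely detected. It was listed at 0 and read 1.36 FPKM in dve-1 replicates 1 and 2, against 0.161 and 0.156 FPKM in WT. These values rest on about 13.5 estimated fragments in dve-1 replicate 2 and about 1.7 in each WT library, so sod-5 did not reach the minimum of 1 FPKM in 2 libraries, was not tested, and differs chiefly by 1 library. No fold change is given for it, because an exact 0 in this table can be a failed estimate: 46 genes were listed at 0 in some library while their median was above 50 FPKM.

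Of the 2 mitochondrial dismutases, sod-2 is the abundant, constitutive form. sod-2 (F10D11.1; chromosome I, 8434550 to 8435806, plus strand) read 135 and 110 FPKM in the dve-1 libraries, against 123 and 158 FPKM in WT. The genotypes overlapped, with WT replicate 2 highest and dve-1 replicate 2 lowest, and the log2 fold change was -0.19 (SE 0.21, 95% interval -0.78 to 0.40).

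The inducible form, sod-3 (C08A9.1; chromosome X, 17092753 to 17094306, plus strand), was the only tested member whose genotypes did not overlap. It read 2.58 and 2.12 FPKM in the dve-1 libraries, against 3.90 and 3.67 FPKM in the WT libraries, with means of 2.35 ± 0.320 and 3.79 ± 0.165 FPKM (SD, n = 2 each) and a ratio of 0.62. The log2 fold change was -0.52 (SE 0.23, 95% interval -1.17 to 0.14), with an unadjusted p of 0.0922 and an adjusted p of 0.9995 in limma, so the difference did not pass. Groups that do not overlap were found for 28.1% of all tested genes, against 1 of 8 members (12.5%). sod-3 rested on about 32.4 and 26.4 estimated fragments in the dve-1 libraries and 51.2 and 49.5 in WT, and counting alone gives an error of up to 19.5% of the value in these libraries.

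The ratio of sod-3 to sod-2 does not depend on how libraries are scaled to each other. sod-3 made up 1.87% and 1.89% of the manganese dismutase transcript in the dve-1 libraries, against 3.08% and 2.27% in WT. The share was lower in both dve-1 libraries. It reuses the sod-3 values given above, so it is not a separate result, and it was not tested. The annotated span of sod-3 shares 547 bases with C08A9.3 and 24 bases with lido-1, and the whole span of sod-2 lies within that of dpt-1. Whether the libraries kept strand is not given in the sources used here, so fragments from such overlaps could not be told apart.

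The 3 catalase genes lie side by side on the minus strand of chromosome II, between 14299556 and 14310779, in the order ctl-2, ctl-1, ctl-3, with 1540 and 1541 bases between their annotated ends. They are closely related copies, and the division of fragments among them by the authors' software is uncertain. ctl-2 (Y54G11A.5), the peroxisomal enzyme gene, read 61.2 and 40.3 FPKM in the dve-1 libraries, against 41.1 and 59.1 FPKM in WT. The 2 libraries of each genotype thus differed by more than the genotypes did, and the log2 fold change was 0.01 (SE 0.32, 95% interval -0.88 to 0.91).

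ctl-1 (Y54G11A.6), the cytosolic enzyme gene, read 29.9 and 25.6 FPKM in the dve-1 libraries, against 24.7 and 29.2 FPKM in WT (log2 fold change 0.04, SE 0.20). ctl-3 (Y54G11A.13), for which reporter studies describe pharyngeal and neuronal expression, read 28.2 and 25.9 FPKM in the dve-1 libraries, against 24.1 and 27.8 FPKM in WT (log2 fold change 0.06, SE 0.18). For all 3 genes dve-1 replicate 1 and WT replicate 2 were the higher pair. The sum of the 3, which is less touched by the division among copies, was 119.4 and 91.9 FPKM in the dve-1 libraries, against 89.9 and 116 FPKM in WT. The sums averaged 106 ± 19.5 FPKM in dve-1 and 103 ± 18.5 FPKM in WT (SD, n = 2 each), a difference well inside the spread between replicates.

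The mitochondrial peroxiredoxin gene prdx-3 (R07E5.2; chromosome III, 4407444 to 4408434, plus strand) read 343 and 258 FPKM in the dve-1 libraries, against 291 and 357 FPKM in WT. The genotypes overlapped, the means were 300 ± 60.1 FPKM in dve-1 and 324 ± 46.3 FPKM in WT (SD, n = 2 each), and the log2 fold change was -0.12 (SE 0.22, 95% interval -0.73 to 0.49). For prdx-2 (F09E5.15; chromosome II, 5378195 to 5379631, plus strand) only 1 of its 3 annotated RefSeq transcripts matched an entry of the table, and that entry was listed at 0 in all 4 libraries. Its level is therefore not known from these values, and prdx-2 was not tested.

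Across the tested members, none passed. Of the 8 tested, all of which reached 1 FPKM in every library, 0 had an adjusted p under 0.05 in limma and 0 an unadjusted p under 0.05. Over all 14652 genes tested, 19 (0.13%) passed the adjusted threshold, split into 0.0683% with higher and 0.0614% with lower dve-1 levels, and 674 had an unadjusted p under 0.05. By sign 5 members were lower and 3 higher in the dve-1 mutant, where 53.8% of all genes tested were lower. The members' median log2 fold change was -0.10, against -0.02 over all genes tested. With 2 libraries against 2, an exact permutation test of a single gene cannot give a p below 0.3333. The 95% intervals were wide. Their upper bounds lay between 0.14 for sod-3 and 0.91 for ctl-2 on the log2 scale, and their lower bounds between -0.45 for ctl-3 and -1.17 for sod-3.

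**Figure D2:**
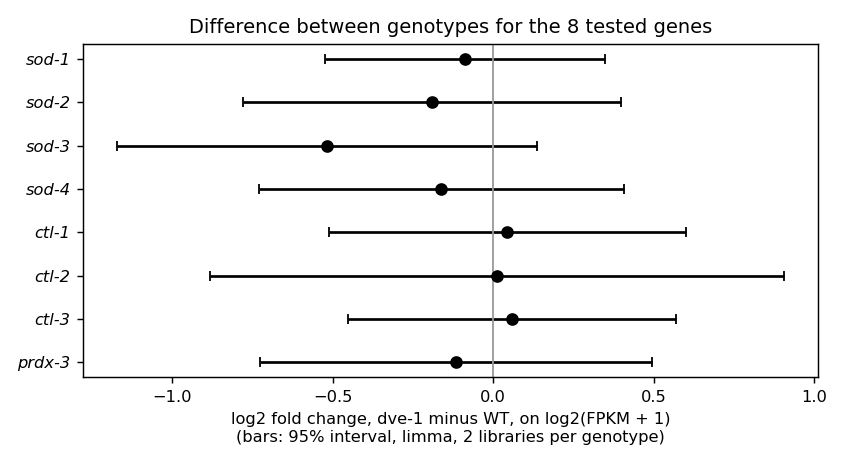
Log2 fold change of the 8 tested genes, dve-1 minus WT on the log2(FPKM + 1) scale, with 95% intervals from limma over 2 libraries per genotype. All intervals include 0, that of sod-3 runs from -1.17 to 0.14, and that of ctl-2 is the widest of those near 0, from -0.88 to 0.91.

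Most members shared an order of libraries that crossed the genotypes, an order also found outside the family. In 6 of the 8 tested genes (sod-1, sod-2, ctl-1, ctl-2, ctl-3 and prdx-3), dve-1 replicate 1 and WT replicate 2 were the 2 highest libraries, a count made after the values were seen. The same order was found in 18.3% of all genes tested, and the opposite one, with dve-1 replicate 2 and WT replicate 1 highest, in 34%. The list of other peroxidases had it too, with a median deviation of 0.34 and -0.07 in dve-1 replicates 1 and 2, against -0.38 and 0.15 in WT replicates 1 and 2. So did the medians of the lists of peroxisomal genes, metal storage, respiratory sources of superoxide, DAF-16 target markers and SKN-1 target markers. The lists of the thioredoxin system, glutathione, dual oxidase and regulators did not. Expressed as the deviation from the gene's own mean over the 4 libraries, ctl-2 stood at 0.30 and -0.29 in dve-1 replicates 1 and 2, against -0.26 and 0.25 in WT replicates 1 and 2. prdx-3 stood at 0.15 and -0.26 in the dve-1 libraries, against -0.09 and 0.20 in WT. sod-3 and sod-4 did not share this order: sod-3 stood at -0.16 and -0.36 in dve-1, against 0.29 and 0.22 in WT, and sod-4 at 0.01 and -0.17 in dve-1, against 0.26 and -0.10 in WT.

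Tissue markers moved between the same libraries. The median deviation of 5 body wall muscle markers was 0.14 and -0.19 in dve-1 replicates 1 and 2, against -0.15 and 0.21 in WT replicates 1 and 2, the order seen in the 6 enzyme genes. The same 2 libraries were highest for 5 pharynx markers, at 0.39 and -0.07 in the dve-1 libraries, against -0.37 and -0.03 in WT. The 5 neuron markers did not clearly share this order, at 0.04 and -0.10 in the dve-1 libraries, against 0.03 and 0.12 in WT. Their dve-1 replicate 1 and WT replicate 1 were nearly tied. The 7 germline and sperm markers had the opposite order, at -0.14 and 0.24 in the dve-1 libraries, against 0.17 and -0.14 in WT. The 5 oocyte markers had this opposite order too, at -0.54 and 1.097 in the dve-1 libraries, against 0.02 and -0.39 in WT. Summed over the list, the oocyte markers read 81.4 and 245 FPKM in the dve-1 libraries, against 125 and 95.2 FPKM in WT, and none of them was at 0. The 9 intestinal markers, with dve-1 replicate 1 and WT replicate 2 again highest, had a median deviation of 0.47 and 0.01 in the dve-1 libraries, against -0.42 and 0.08 in WT, with 4 of the 9 higher in both dve-1 libraries than in both WT libraries, against 11.9% of all genes tested. Summed, they read 5484 and 5273 FPKM in the dve-1 libraries, against 3824 and 4954 FPKM in WT. The 6 hypodermal markers had a median deviation of -0.08 and -0.42 in dve-1, against 0.24 and 0.28 in WT, the order of libraries seen for sod-3 apart from which WT library was higher, and all 6 were lower by sign in dve-1, against 53.8% of all genes tested. In 3 of the 6 the groups did not overlap, against 16.2% of all genes tested that were lower in this way. Their summed level was 2849 and 3725 FPKM in the dve-1 libraries, against 4210 and 3591 FPKM in WT. The part of these tissue differences in the enzyme levels was not tested, and in whole animals fewer cells of a tissue and less RNA per cell cannot be told apart.

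**Figure D3:**
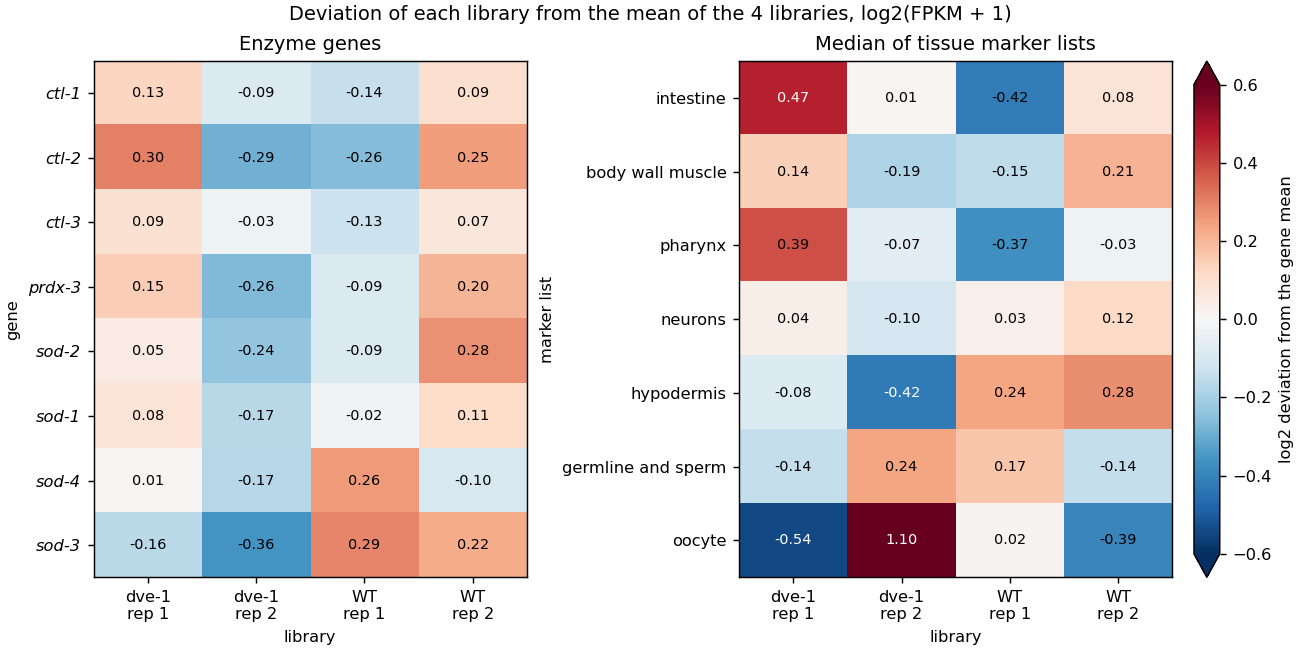
Deviation of each library from the mean of the 4 libraries on the log2(FPKM + 1) scale, for the 8 tested enzyme genes (left) and as the median over each tissue marker list (right), with red above and blue below the mean and colours capped at 0.6. The upper 6 enzyme genes are red in dve-1 replicate 1 and WT replicate 2, as are the body wall muscle and intestine markers, while sod-3 is blue in both dve-1 libraries and red in both WT libraries.

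The make-up of the family by transcript is a ratio within each library. sod-1 supplied 62.3% of the summed superoxide dismutase FPKM in each dve-1 library, against 60.7% and 60.3% in the WT libraries. The shares of sod-1 differed by little but did not overlap, averaging 62.3% ± 0.0373 in dve-1 and 60.5% ± 0.240 in WT (SD, n = 2 each). The difference in share was not tested. By the same rule the levels of 28.1% of all tested genes did not overlap, and the levels of sod-1 itself did overlap. sod-2 supplied 26.6% and 25.9% in the dve-1 libraries, against 25.3% and 29.6% in WT, and sod-4 10.6% and 11.1% in dve-1, against 13.2% and 9.33% in WT. sod-3 supplied 0.508% and 0.497% in the dve-1 libraries, against 0.804% and 0.688% in WT. This share, too, reuses the sod-3 values given above and was not tested. Within the catalases ctl-2 supplied 51.3% and 43.9% in the dve-1 libraries, against 45.7% and 50.9% in WT. Its share was higher in the 2 libraries where the catalase sum was higher. ctl-2 is itself part of that sum, so a high ctl-2 value raises both.

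sod-1, sod-4 and ctl-3 had 2 transcript entries each, and Cufflinks, the software named for this table, divides fragments between such entries by estimation. The entry of sod-1 with the higher mean read 158 and 160 FPKM in the dve-1 libraries, against 186 and 219 FPKM in WT. It was lower in both dve-1 libraries, with a log2 fold change of -0.34 (SE 0.14, limma adjusted p = 0.9997 over 17095 entries), and did not pass. The other sod-1 entry read 158 and 106 FPKM in the dve-1 libraries, against 109 and 103 FPKM in WT, and overlapped. The first entry thus made up 50.1% and 60.1% of sod-1 in the dve-1 libraries, against 63.0% and 67.9% in WT. Among all single entries tested, 28.8% had groups that did not overlap, and 0.0526% passed the adjusted threshold. sod-1 also shares 85 bases of its annotated span with the non-coding RNA gene C15F1.13.

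For ctl-3 the entry with the higher mean made up 77.0% and 56.6% of the gene in the dve-1 libraries, against 48.5% and 64.1% in WT, and the genotypes overlapped. sod-4 was more even, with its main entry at 68.3% and 61.6% of the gene in the dve-1 libraries, against 71.9% and 67.6% in WT. These overlapped too. The entries could not be tied to named isoforms here.

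**Figure D4:**
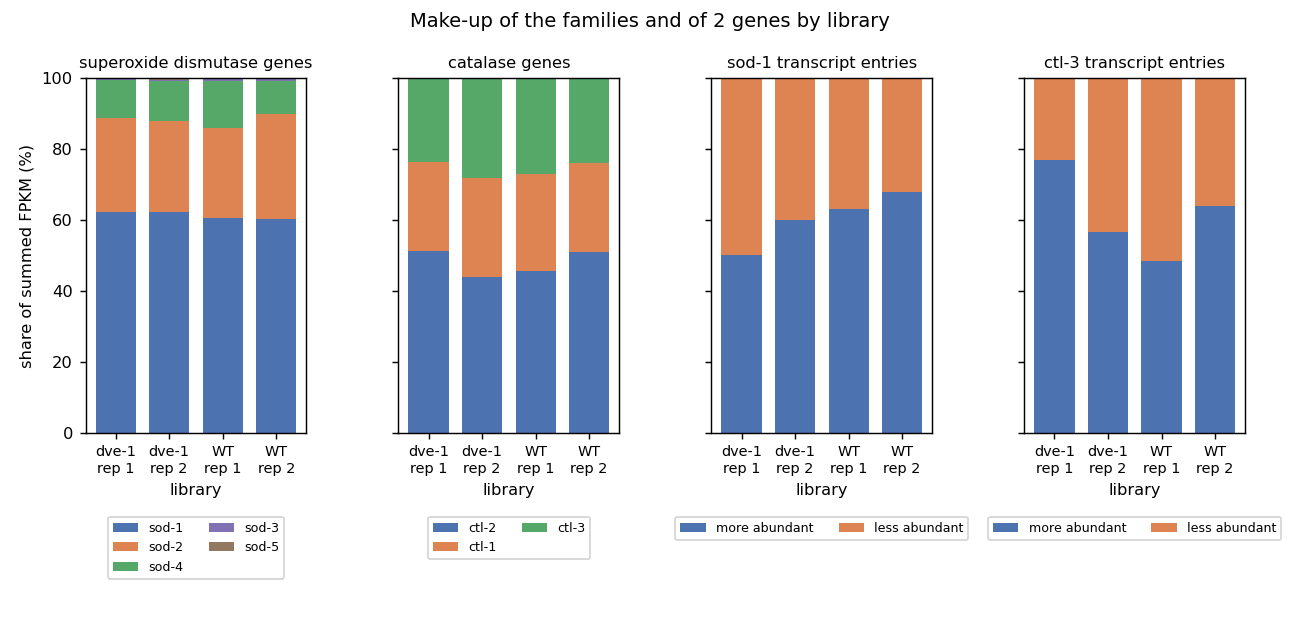
Shares of summed FPKM in percent by library, for the 5 superoxide dismutase genes, the 3 catalase genes, and the 2 transcript entries of sod-1 and of ctl-3, where more and less abundant refer to the mean over 4 libraries. The dismutase bars are nearly alike, with sod-1 at 60.3% to 62.3%, whereas the more abundant ctl-3 entry ranges from 48.5% to 77.0%.

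The enzymes around this family were then compared, in 10 lists of 96 genes chosen for their role. Of 87 genes tested, 0 passed the adjusted threshold in either direction in limma, 3 had an unadjusted p under 0.05, and 20 (22.99%) had groups that did not overlap, against 28.1% of all tested genes. In the thioredoxin system, which feeds electrons to peroxiredoxins, 2 of 5 tested members were higher and 3 lower by sign, and the median log2 fold change was -0.02. Groups did not overlap in 3 of the 5 (60%), 2 of them higher and 1 lower in dve-1. trxr-1, the cytosolic thioredoxin reductase that contains selenocysteine, read 71.7 and 64.3 FPKM in the dve-1 libraries, against 68.1 and 69.7 FPKM in WT. trx-2, the mitochondrial thioredoxin, read 150 and 171 FPKM in the dve-1 libraries, against 172 and 178 FPKM in WT. trx-3, an intestinal thioredoxin, had the smallest unadjusted p of the list (0.0928), at 27.7 and 46.2 FPKM in the dve-1 libraries, against 24.3 and 13.3 FPKM in WT.

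For glutathione synthesis and recycling, 6 of 9 tested members were higher and 3 lower by sign, around a median of 0.06 on the log2 scale. Groups did not overlap in 4 of the 9 (44.4%), 3 of them higher and 1 lower in dve-1, against 28.1% of all tested genes. gcs-1, the rate-limiting enzyme of glutathione synthesis and a target of the oxidative stress factor SKN-1, read 52.6 and 46.9 FPKM in the dve-1 libraries, against 53.9 and 50.8 FPKM in WT. gsr-1, glutathione reductase, read 62.4 and 34.2 FPKM in the dve-1 libraries, against 27.3 and 36.4 FPKM in WT, with dve-1 replicate 1 apart from the other 3 libraries and the groups overlapping (log2 fold change 0.54, SE 0.37). msra-1, which repairs oxidised methionine, read 1156 and 1261 FPKM in the dve-1 libraries, against 944 and 1072 FPKM in WT, and did not pass (log2 fold change 0.26, SE 0.14).

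Among 13 other peroxidases tested, 9 were higher and 4 lower by sign, around a median of 0.06. skpo-3, a haem peroxidase with a ShkT domain, had the highest fold change of the list, at 30.1 and 21.1 FPKM in the dve-1 libraries, against 5.40 and 12.8 FPKM in WT (log2 fold change 1.48, SE 0.47, limma adjusted p = 0.971). mlt-7, a peroxidase that cross-links the cuticle at the molt, had the smallest unadjusted p of the 10 lists. It read 32.2 and 31.5 FPKM in the dve-1 libraries, against 14.8 and 13.5 FPKM in WT, and did not pass (log2 fold change 1.12, SE 0.17, limma adjusted p = 0.319). gpx-5, a glutathione peroxidase-like gene, read 130 and 105 FPKM in the dve-1 libraries, against 63.9 and 93.9 FPKM in WT, with a log2 fold change of 0.59 (SE 0.26). The third peroxiredoxin gene of the worm, prdx-6, read 59.3 and 54.1 FPKM in the dve-1 libraries, against 54.95 and 58.3 FPKM in WT, with the groups overlapping.

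Sources of superoxide and peroxide were also compared. Of 6 tested genes for respiratory chain sources of superoxide, 2 were higher and 4 lower by sign, and their log2 fold changes lay between -0.15 and 0.04. Another gene of this list, mev-1, was listed at 0 in all 4 libraries and was not tested, so its level is not known from these values. isp-1, the Rieske iron-sulphur protein of complex III, read 626 and 545 FPKM in the dve-1 libraries, against 623 and 677 FPKM in WT. Peroxisome biogenesis genes and peroxide-forming oxidases had 16 of 21 members higher by sign and the highest list median, 0.16. Groups did not overlap, however, in only 2 of the 21 members (9.52%), against 28.1% of all tested genes. acox-1.5, an acyl-CoA oxidase of peroxisomal beta-oxidation, read 32.3 and 19.1 FPKM in the dve-1 libraries, against 12.4 and 16.03 FPKM in WT (log2 fold change 0.77, SE 0.34). The dual oxidase bli-3, which makes hydrogen peroxide for cuticle cross-linking, read 12.7 and 11.9 FPKM in the dve-1 libraries, against 12.4 and 11.6 FPKM in WT. Its maturation factor doxa-1 read 9.71 and 6.97 FPKM in the dve-1 libraries, against 6.28 and 4.30 FPKM in WT (log2 fold change 0.57, SE 0.30).

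**Figure D5:**
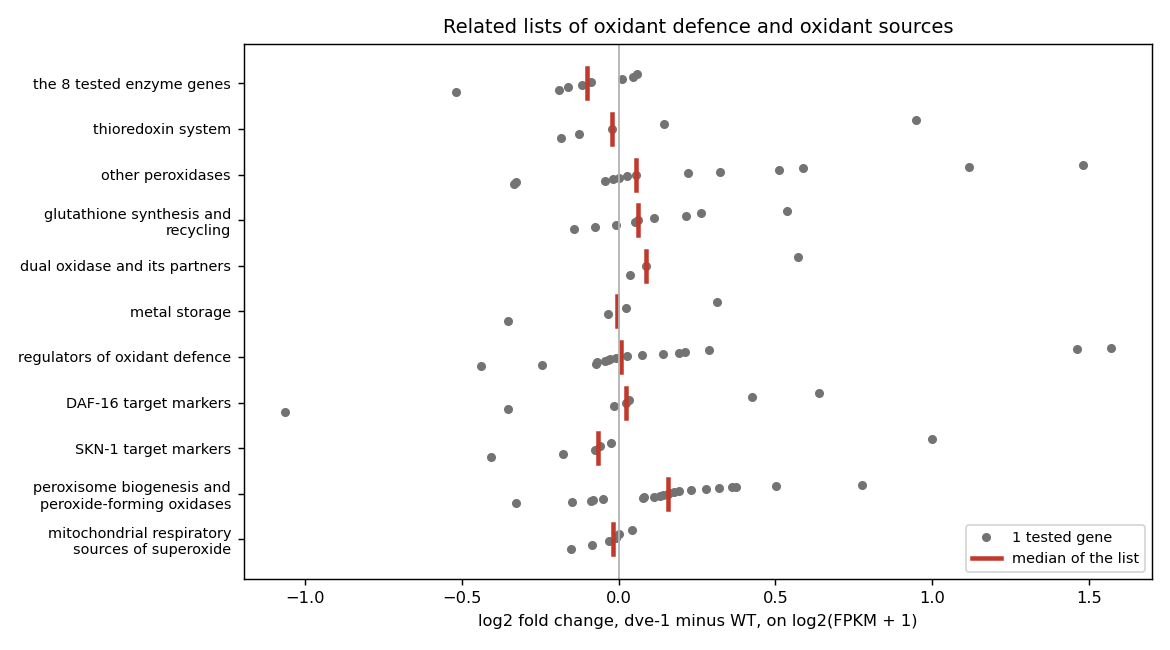
Log2 fold change, dve-1 minus WT on the log2(FPKM + 1) scale, of each tested gene (grey) and the median (red bar) for the 8 tested enzyme genes and 10 related lists. The medians lie between -0.10 for the enzymes and 0.16 for the peroxisomal list, and 0 of the genes shown passed the adjusted threshold.

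The transcription factors that control these enzymes, and markers of their activity, had no member past the threshold either. Of 16 tested regulators of oxidant defence, 8 were higher and 8 lower by sign, around a median of 0.009. Groups did not overlap in 1 that was higher and 1 that was lower (12.5%), against 28.1% of all tested genes. daf-16, whose product activates sod-3, read 9.05 and 8.79 FPKM in the dve-1 libraries, against 11.4 and 10.1 FPKM in WT (log2 fold change -0.24, SE 0.20). Both dve-1 libraries thus lay below both WT libraries, as in 16.2% of all tested genes. skn-1 read 42.2 and 38.9 FPKM in the dve-1 libraries, against 36.3 and 40.7 FPKM in WT. sgk-1, a kinase of the insulin pathway, read 20.2 and 24.1 FPKM in the dve-1 libraries, against 4.21 and 12.5 FPKM in WT (log2 fold change 1.46, SE 0.54). The lipid kinase gene age-1 read 10.9 and 121 FPKM in the dve-1 libraries, against 13.1 and 10.7 FPKM in WT, and dve-1 replicate 2 alone set the log2 fold change of 1.57 (SE 1.23).

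Of 7 tested DAF-16 target markers other than sod-3, 4 were higher and 3 lower by sign, around a median of 0.02. Groups did not overlap in 1 that was higher and 1 that was lower (28.6%), near the 28.1% of all tested genes. dod-3 read 29.9 and 23.8 FPKM in the dve-1 libraries, against 82.8 and 38.8 FPKM in WT, and was lower in both. lys-7, a lysozyme gene, read 48.4 and 57.8 FPKM in the dve-1 libraries, against 33.5 and 33.7 FPKM in WT, and was higher in both (log2 fold change 0.64, SE 0.17, limma adjusted p = 0.804). The metallothionein gene mtl-1 read 17.8 and 6.46 FPKM in the dve-1 libraries, against 9.79 and 20.2 FPKM in WT, with dve-1 replicate 1 and WT replicate 2 high as in the catalases. Of 6 tested SKN-1 target markers, 1 was higher and 5 lower by sign, with a median of -0.07. The higher one, dhs-8, had the smallest unadjusted p of the list and low values. It read 2.20 and 4.42 FPKM in the dve-1 libraries, against 0.40 and 2.095 FPKM in WT (log2 fold change 0.999, SE 0.54). gst-4, a glutathione transferase gene used as a SKN-1 reporter, read 48.3 and 46.6 FPKM in the dve-1 libraries, against 48.0 and 60.1 FPKM in WT, and gst-10 read 259 and 262 FPKM in the dve-1 libraries, against 286 and 417 FPKM in WT.

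Genes with the most similar course over the 4 libraries were found as the smallest distance between deviations from the gene mean on the log2(FPKM + 1) scale, among protein-coding genes with a mean of at least 5 FPKM. This rests on 4 values per gene, and many genes came close: 131 genes lay within a distance of 0.2 of sod-3 and 1213 genes of sod-1. The nearest to sod-3 was asns-2, an asparagine synthetase gene, at a distance of 0.022, with 36.7 and 31.9 FPKM in the dve-1 libraries, against 51.3 and 47.7 FPKM in WT. For ctl-2 the nearest was arrd-22, an arrestin-domain gene, at a distance of 0.0248, with 15.7 and 10.1 FPKM in the dve-1 libraries, against 10.2 and 15.4 FPKM in WT. For prdx-3 the nearest was ife-2, a translation initiation factor gene, with 157 and 120 FPKM in the dve-1 libraries, against 135 and 163 FPKM in WT. Within the family the nearest pair was ctl-1 and ctl-3 (distance 0.0748), which are neighbouring copies, followed by sod-2 and prdx-3 (0.125). The remaining catalase copy, ctl-2, lay farther off, at 0.332 from ctl-1 and 0.404 from ctl-3. The other mitochondrial enzyme gene, sod-3, lay at 0.453 from sod-2 and 0.5 from prdx-3. By comparison, the distance between sod-1 and ctl-1 was 0.153. Many genes outside the family also lay within 0.2, 426 of sod-2 and 508 of prdx-3. sod-3 and ctl-2 were the farthest apart (0.728).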

How the data were processed

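The authors deposited 1 table with 1 value per RefSeq transcript accession and library; its header names no unit. Its values, decimals from a Cufflinks workflow, were taken to be FPKM made by the authors. Tools listed in the submitters' processing notes are TopHat2 and Cufflinks, with the build ce11 and no settings. Of 52491 accessions, 47633 (90.7%) matched a gene of RefSeq WBcel235, ignoring versions, and FPKM were summed per gene, so genes whose transcripts are among those not matched would be understated.

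Fragments were estimated from 1509 single-transcript genes, in which 62.9% to 66.1% of low values were whole to within 0.1, which assumes scaling to mapped fragments alone. limma 3.58.1 (R 4.3.3) with a mean-variance trend was fitted to log2(FPKM + 1) of genes with at least 1 FPKM in 2 libraries, with Benjamini-Hochberg adjustment over 14652 genes, two-sided, threshold 0.05. Fold changes of low genes are understated by the pseudocount. The fit was tested on simulated data. Tables used Python 3.11.15 and pandas 2.3.3.

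Members and lists were chosen with earlier results of these data known. Named genes were the members, dve-1, up to 3 per list by unadjusted p and the 3 nearest in pattern. daf-16, skn-1, trxr-1, gcs-1, prdx-6, gst-4, mtl-1 and the marker unc-54 were added for their role, after values were seen. The germline marker pgl-1 was also named after values were seen. Sequence likeness was not analysed here.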

Additional observations from a re-analysis of the deposited data

How the results depend on the processing

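Under every alternative run, 0 of the tested enzyme genes (8, or 9 with no filter on low values) passed in limma, and 0 had an unadjusted p under 0.05 except without the mean-variance trend, where it was 1 (sod-3). The log2 fold changes of sod-1, sod-4, ctl-1, ctl-2, ctl-3 and prdx-3 turned sign when 1 library was left out, where a lone library is assumed to vary like the others. They ran from -0.211 to 0.0366 for sod-1 (higher only without dve-1 replicate 2) and from -0.338 to 0.016 for sod-4 (higher only without WT replicate 1). For ctl-1 the range was -0.0722 to 0.161 and for ctl-2 -0.284 to 0.308, both lower without WT replicate 1 or dve-1 replicate 1, and for ctl-3 it was -0.0391 to 0.159, lower without WT replicate 1. For prdx-3 it was -0.321 to 0.0885, higher without WT replicate 2 or dve-1 replicate 2. sod-2 ran from -0.37 to -0.01 and sod-3 from -0.62 to -0.42, and sod-3 was -0.67 with a pseudocount of 0.1.

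The count over all genes depended on the processing: 19 genes passed as reported, against 86 without the trend, 10 with a pseudocount of 0.1, 9 single accessions, 3 with no filter on low values (genes at 0 in every library left out), 0 of 13013 (500 at an unadjusted p under 0.05) with at least 1 FPKM in all 4 libraries, and 0 of 13467 (545) among protein-coding genes. The cause was not tested. Leaving out any 1 library gave 0 (513 to 858). The replicate block gave 0 (516). In this balanced design a block cannot move a fold change. Same-numbered libraries deviated in opposite directions (correlation -0.194 over genes), and a block with crossed numbers, added after the data were seen, gave 0 genes (1264) and 0 members.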
